A study of Saccharomyces cerevisiae with 4 samples.

Results

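SER3, the noncoding gene SRG1 that lies across its promoter, and the paralog SER33 were examined in budding yeast, Saccharomyces cerevisiae, lacking the nuclear exosome nuclease gene RRP6. These are 3 of 6413 genes, of which 6002 are ORFs and the others annotated noncoding genes. Transcript isoform sequencing (TIF-Seq) reads the capped start and the polyadenylated end of the same RNA molecule, and each distinct pair of start and end is called an isoform below. All 4 libraries came from strain FSY3636, which is MATa with rrp6 replaced by kanMX4 in the S288c background, grown in YPAD with glucose to mid-log phase at OD 1. They were 2 preparations from each of 2 cultures, formed 1 group, and were deposited as 1 pooled count of 1833796 reads on 425462 isoforms. No library of a strain with RRP6 was analysed here, so no value below is a change caused by the deletion, and no replicate error or test across samples could be given. Intervals are 95% intervals, Wilson for shares and exact Poisson for levels, and cover counting error only. They treat each read as independent, although whether PCR copies were collapsed is not stated, so they may be too narrow. Where a count is 0, the limit given in place of an interval is the level or share that 3 reads would make.

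The members were all isoforms of either strand that overlapped the stretch from 800 bases upstream of the SER3 start codon to 500 bases past its stop codon. On build R64 this was chromosome V, 321886 to 324595, and it held 212 isoforms with 327 reads. The matching stretch around SER33, chromosome IX, 220581 to 223290, held 89 isoforms with 110 reads. SER3 (YER081W) is on the plus strand at 322686 to 324095, SRG1 (YNCE0017W) on the same strand at 322212 to 322762, and SER33 (YIL074C) on the minus strand at 221081 to 222490. The annotated SRG1 gene of 551 bases thus overlaps the first 77 bases of the SER3 ORF.

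SER3 and SER33 encode isozymes of phosphoglycerate dehydrogenase, which makes the first step of serine synthesis from a glycolytic intermediate. In wild-type cells with serine at hand, SER3 is known to be kept off by transcription of SRG1 through its promoter, which lays nucleosomes over the sites where activators and the transcription machinery would bind. SRG1 itself is switched on by the serine-responsive activator Cha4. It is a textbook case in which the act of transcription, more than the RNA product, represses a gene.

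The promoter sequences show where these transcripts began. They are given 5′ to 3′ on the strand of the gene, with TATAAA and TATATA matches in capitals and, for SRG1, also the most used start base, at 322213. The SRG1 sequence spans chromosome V, 321963 to 322232, the SER3 sequence 322436 to 322641, which ends just before the 2 covering starts nearest to the SER3 start codon, and the SER33 sequence chromosome IX, 222626 to 222740, which ends just before its most upstream covering start.

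SRG1 promoter: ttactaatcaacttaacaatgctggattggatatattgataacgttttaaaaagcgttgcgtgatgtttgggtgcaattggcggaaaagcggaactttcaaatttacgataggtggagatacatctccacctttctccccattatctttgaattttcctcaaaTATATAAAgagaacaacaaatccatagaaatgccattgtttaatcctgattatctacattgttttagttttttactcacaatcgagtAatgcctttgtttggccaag
SER3 promoter: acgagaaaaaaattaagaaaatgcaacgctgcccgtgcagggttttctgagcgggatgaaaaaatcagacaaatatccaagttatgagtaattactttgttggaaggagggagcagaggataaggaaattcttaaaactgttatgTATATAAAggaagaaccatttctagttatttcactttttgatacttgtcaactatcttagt
SER33 promoter: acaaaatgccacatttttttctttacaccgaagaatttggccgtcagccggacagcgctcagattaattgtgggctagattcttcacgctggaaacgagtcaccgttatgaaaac

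TATAAA and TATATA were searched on both strands in windows of 250 bases before to 50 bases after the start. In SRG1 the pair overlaps as 1 run, with TATAAA beginning 85 bases upstream of the most used start. The same overlapping run is found in SER3, with TATAAA beginning 103 bases upstream of the start codon, which is 59 and 77 bases upstream of the 2 covering starts nearest to it. A further TATAAA begins 29 bases upstream of the SER3 start codon, between these 2 starts and running over the second, in the sequence aatacagaactcTATAAAgaaccacagaaa (chromosome V, 322645 to 322674). Neither motif occurs in the SER33 window. Of 6001 ORF promoters of the same length, 45.2% hold TATAAA and 32.3% hold TATATA on either strand, so a match is common.

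SRG1 was the leading transcript of the SER3 region. Isoforms that overlapped the SRG1 gene without covering the SER3 ORF had 190 reads (95% Poisson interval 164 to 219), or 104 CPM (89.4 to 119; CPM are counts per 1000000 reads of the table), on 96 isoforms. By all reads of its strand over the gene, 200 with the SER3-covering molecules, SRG1 ranked 1 among 21 genes that the annotation types as ncRNA, of which 15 had at least 1 read. Next was SUT053 with 158 reads, and the median of the 21 genes was 2 reads. Some noncoding genes of other annotated types had more than SRG1, among them the antisense RNA gene TBRT with 310 reads and the telomerase RNA gene TLC1 with 514. IRT1, a noncoding transcript known to repress the meiotic regulator gene IME1, had 31 reads. These sums count any overlap on the strand and can hold molecules of neighbouring genes, as in SRG1.

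**Figure D1:**
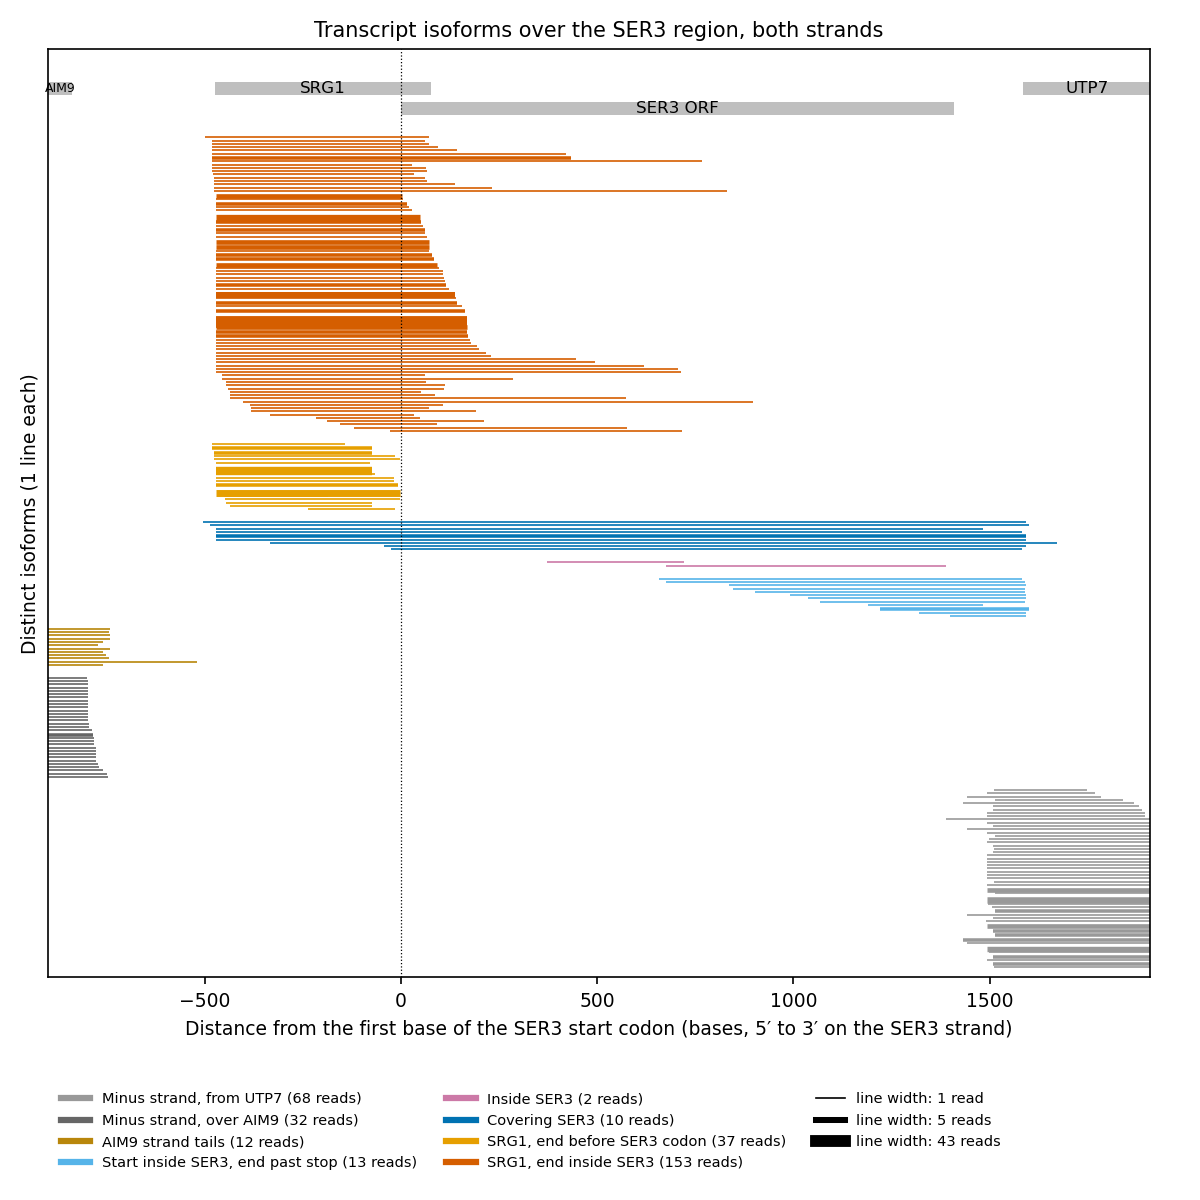
Isoforms over the SER3 region, 1 horizontal line for each, by distance from the SER3 start codon in bases and with line width rising with the read count from 1 to 43 reads. Grey boxes mark the SRG1 gene and the ORFs, and isoforms that run out of the window are cut at its edges. The 190 SRG1 reads, in dark orange (end inside SER3) and yellow-orange (end before it), begin almost together and end over a broad stretch around the start codon, and only the 10 reads in dark blue cover SER3.

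SRG1 molecules began at a narrow place. The single base 322213, 1 base downstream of the annotated start and 473 bases upstream of the SER3 start codon, held 142 of 190 reads (74.7%, 68.1 to 80.4). Starts within 5 bases of it held 151 reads (79.5%, 73.2 to 84.6), and starts within 50 bases of the annotated SRG1 start 179 reads (94.2%, 89.9 to 96.7). The next starts were 322209 with 9 reads, 322203 with 8 and 322205 with 6. In all there were 22 distinct starts with a perplexity, the effective number of equally used sites, of 3.43. The most used base is an A preceded by T, and over the whole table a purine stood at the start in 66.0% of plus-strand and 64.1% of minus-strand start sites, against 38.2% and 39.4% at the base before. The 11 other reads that lay beyond 50 bases of the annotated start were spread between it and the SER3 start codon.

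SRG1 ends were far more dispersed than its starts. The 190 reads used 77 distinct ends with a perplexity of 36.2, and from the most used start alone there were 51 ends. The 5th to 95th percentile of ends ran from 74 bases before to 473 bases past the first base of the SER3 start codon, a stretch that holds the whole annotated overlap with SER3. The same percentiles of starts lay at -481 and -392.65 bases relative to it. A total of 169 reads (88.9%, 83.7 to 92.7) ended between 100 bases before the ORF and the end of its first 200 bases.

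Most SRG1 molecules crossed the SER3 start codon. Ends inside the SER3 ORF were found for 153 reads (80.5%, 74.3 to 85.5) and ends before it for 37 reads (19.5%, 14.5 to 25.7). The annotated SRG1 end was passed by 108 reads (56.8%, 49.7 to 63.7), and only 17 reads (8.95%, 5.66 to 13.9) ended within 10 bases of it. Reaching into the ORF was shallow in most molecules: 97 reads ended at or past base 100 of the ORF, 19 at or past base 200 (10%, 6.50 to 15.1) and 9 at or past base 500 (4.74%, 2.51 to 8.76). Reads from the most used start ended before the start codon in 25 of 142 cases (17.6%, 12.2 to 24.7) and reads from other starts in 12 of 48 (25%, 14.9 to 38.8), shares whose intervals overlap. SRG1 molecules had a median length of 572 bases, with quartiles at 488 and 641 and a range of 223 to 1309.

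The most used ends are shown with 20 bases up to and including the last base of the molecule, in capitals, and the next 10 bases of the genome, all on the plus strand of chromosome V.

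SRG1 end at 322853: ttttgaagcctttctcaacGggtgatatga
SRG1 end at 322612: gaaccatttctagttatttCactttttgat
SRG1 end at 322684: accacagaaaaatcgacagCaatgacaagc
SRG1 end at 322733: aaaatacctttcaacaagcTatgaatatga

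The end at 322853, which is base 168 of the SER3 ORF and 91 bases past the annotated SRG1 end, had 43 reads (22.6%, 17.3 to 29.1). All 43 came from the start at 322213 and so formed a single isoform, the most read one of the region. Ends within 10 bases of it held 53 reads (27.9%, 22.0 to 34.7). The end at 322612, 74 bases before the start codon, had 18 reads from 5 distinct starts. The end at 322684, 2 bases before the start codon, had 9 reads from 3 starts, and the end at 322733, base 48 of the ORF, had 8 reads from 1 start. No other end had more than 6 reads. Among the next 10 genome bases these 4 ends had 3, 2, 5 and 5 A, below the 6 that were taken here as A-rich, where the primer for the poly(A) tail can bind the genome-coded sequence. Of all SRG1 reads, 14 (7.37%, 4.44 to 12.0) ended before A-rich genome, among them the 6 reads at 322824.

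**Figure D2:**
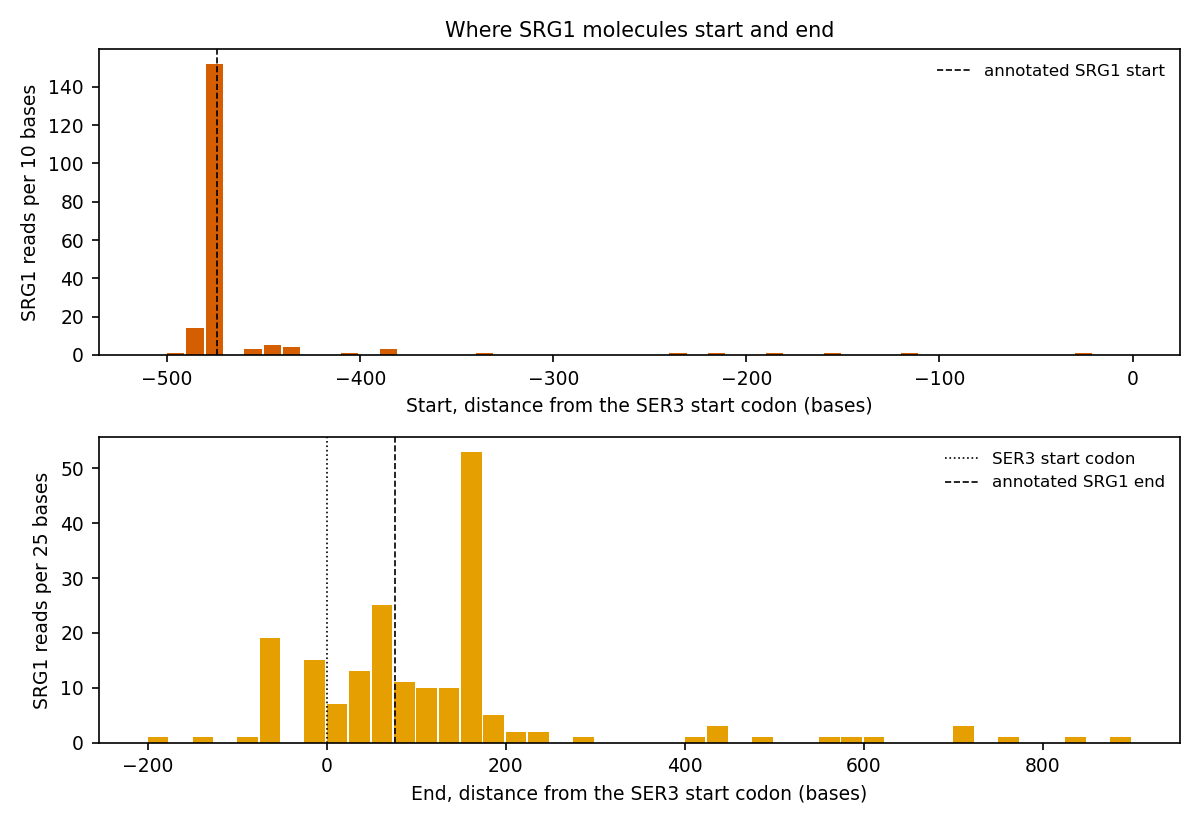
Read counts of SRG1 molecules by start (upper panel, bins of 10 bases) and by end (lower panel, bins of 25 bases), both as distance from the SER3 start codon in bases, with the annotated SRG1 start and end dashed. The starts form 1 tall bar at the annotated start, with 142 reads on a single base, whereas the ends lie on both sides of the start codon, with the tallest bar at the 43-read end at base 168 of the ORF.

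Few molecules of the region covered the SER3 ORF, although their number was near the median of 11 covering reads in ORFs of similar length. There were 10 such reads on 9 isoforms, or 5.45 CPM (2.62 to 10.03). Of these, 7 began within 50 bases of the most used SRG1 start (70%, 39.7 to 89.2), namely 5 at 322213, which ended at 324168, 324269, 324278 (2 reads) and 324279, 1 from 322181 to 324278 and 1 from 322199 to 324287. These molecules were SRG1 and SER3 in a single RNA, from 1956 to 2098 bases long. An eighth read began 335 bases upstream of the start codon and ended at 324358. The remaining 2 reads began 44 and 26 bases upstream of the start codon, at 322642 and 322660, and ended at 324278 and 324269. In all, 3 reads of SER3 began within the last 100 bases before its start codon, these 2 and 1 from 322658 that ended inside the ORF at 323403.

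Of all reads that began within 50 bases of the most used SRG1 start, 7 of 186 ran through the whole SER3 ORF (3.76%, 1.83 to 7.56). Long molecules were rare throughout: of all reads in the table, 36.3% lay on isoforms of 400 to 800 bases, 2.62% on isoforms of 1500 to 1700 bases and 0.805% on isoforms of 1900 to 2200 bases. SRG1 molecules and SER3-covering molecules, with medians of 572 and 2062 bases, fall at opposite ends of this range, and the part of length in the ratio of their reads was not tested.

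A molecule that starts at 322213 and covers SER3 carries a 473-base leader with 7 ATG triplets ahead of the SER3 start codon. The first begins 1 base after the start of the molecule. Of the 7, 2 are in the reading frame of SER3, and all 7 reading frames meet a stop codon before the SER3 start codon, the longest after 22 codons. The longest SER33 leader, of 135 bases, holds 1 ATG. Whether any of these triplets is translated was not measured.

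Other SER3 reads of the coding strand began inside the ORF. A start inside the ORF with an end past the stop codon, a late start, was seen in 13 reads on 12 isoforms (7.30% of 178 sense reads, 4.32 to 12.1), with starts from base 658 to base 1401, and 2 reads lay wholly inside the ORF. Late starts shared their 3′ end with the covering molecules: 12 of 13 late-start reads and 8 of 10 covering reads ended within 10 bases of 324278, which is 183 bases past the stop codon. The window there, from 324259 to 324288, reads aagatatttcgatttagccGaatctgctca with the last base of the molecule in capitals. None of the 12 late starts had more than 2 reads. Whether these are full molecules with internal starts or molecules whose 5′ part was lost was not tested.

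SER33 had more covering reads and fewer early ends than SER3. It had 43 covering reads on 29 isoforms, or 23.4 CPM (16.97 to 31.6), against 5.45 CPM (2.62 to 10.03) for SER3. These intervals do not overlap. Both ORFs are 1410 bases long, but the covering molecules had a median length of 1548 bases in SER33 and 2062 in SER3. The part of molecule length in this difference was not tested. Only 2 of 75 SER33 sense reads ended early (2.67%, 0.734 to 9.21), against 153 of 178 for SER3 (86.0%, 80.1 to 90.3). An early end means a start upstream of and an end inside the ORF. In SER3 all 153 are the SRG1 reads that ended inside the ORF. They are so by definition, because SRG1 spans the SER3 start codon, so this contrast restates the SRG1 count. No SER33 covering read had a leader of 400 bases or more, which allows a share of up to 6.98% of 43, while 7 of 10 SER3 covering reads had one. Differences between the 2 genes lie within 1 pooled sample, so they carry no replicate check.

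SER33 molecules began close to the start codon but at many bases. Its 43 covering reads used 23 distinct starts from 3 to 135 bases upstream. Leaders of up to 60 bases had 17 reads (39.5%, 26.4 to 54.4), leaders of 61 to 100 bases 10 reads (23.3%, 13.2 to 37.7) and longer ones 16 reads (37.2%, 24.4 to 52.1). The most used starts, with 5 reads each, were 222624 and 222522, the latter 32 bases upstream, followed by starts 49 and 84 bases upstream with 4 reads each. Ends were narrow, the reverse of SRG1: 40 of 43 covering reads (93.0%, 81.4 to 97.6) ended within 10 bases of 221028, which is 53 bases past the stop codon, in the sequence taaaatcctcccctatcttCatagtatgta (chromosome IX, 221018 to 221047, minus strand, last base in capitals). These sets of ends differ by definition, since covering reads must end past the stop codon and SRG1 reads exclude covering ones. In SER3, 8 of 10 covering reads also ended within 10 bases of the most used end. Late starts made up 30 SER33 reads (40%, 29.7 to 51.3), with 6 reads at base 803 of the ORF and no more than 2 at any other.

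**Figure D3:**
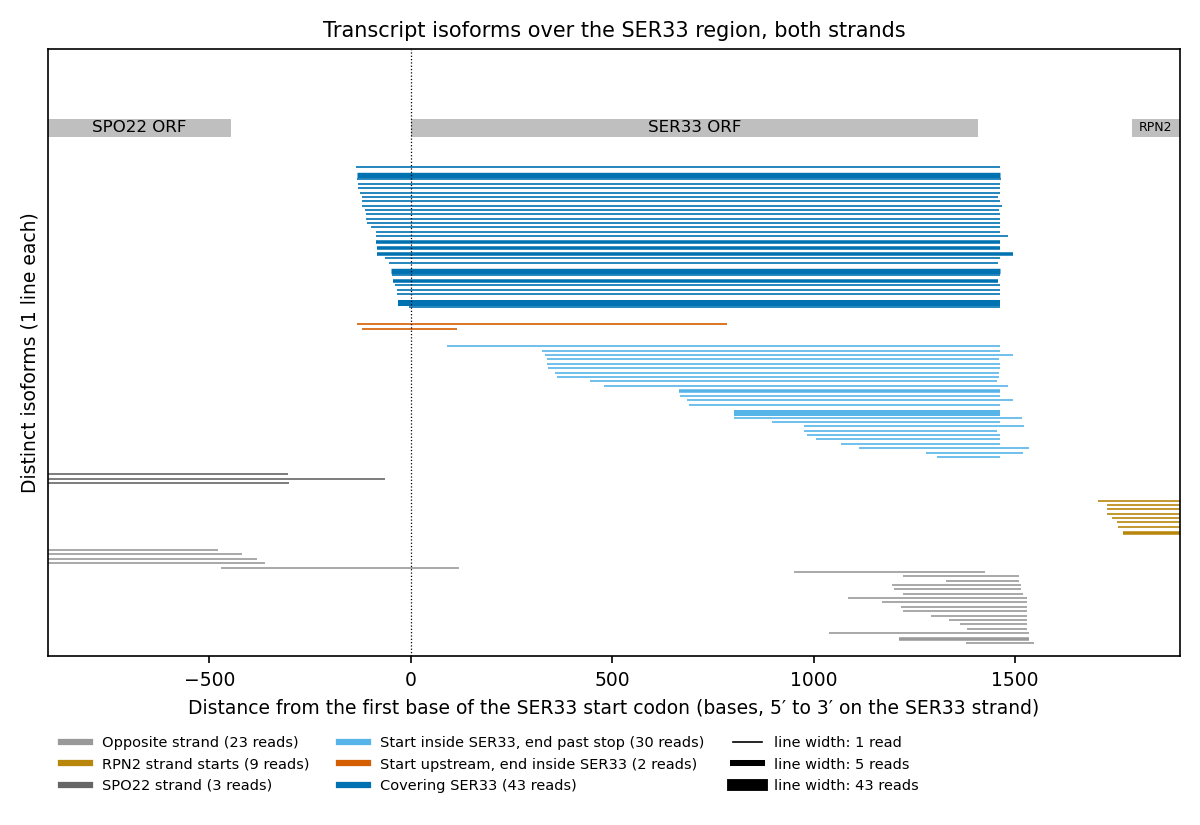
Isoforms over the SER33 region, drawn as for SER3, with distance from the SER33 start codon in bases on the horizontal axis and line width rising with the read count. The 43 covering reads in dark blue begin 3 to 135 bases upstream and end together, and only 2 reads in dark orange start upstream and end inside the ORF.

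The 2 ORFs are 82.4% identical over 1410 bases without gaps, with 248 mismatches and a longest identical stretch of 56 bases, so reads could have been placed on the wrong copy. A tag of 30 bases at each end of every sense molecule was compared with the other ORF. No SER3 or SER33 read had both tags within 2 mismatches of the paralog, and the more distinct of the 2 tags had at least 3 mismatches in SER3 and 12 in SER33. The starts of SRG1 and the ends past both stop codons lie outside the ORFs. A tag outside the ORF has no counterpart in the other ORF, so the comparison bears mainly on the 2 reads inside SER3. It does not settle the placement of the other reads.

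Set among all ORFs, the early-end share of SER3 was high. Over the 2420 ORFs that reached 50 sense reads, the share had a median of 0.418%, and 105 ORFs (4.34%) exceeded 50%. SER3, at 86.0%, was one of the 105 and ranked 36, and SER33, at 2.67%, ranked 652. The early ends of SER3 are by definition SRG1 reads, so its rank restates how much SRG1 was read. Long leaders were rarer: in 38 of 2920 ORFs with at least 10 covering reads (1.3%) at least 50% of these reads began 400 or more bases upstream, and SER3, with exactly 10 covering reads, was 1 of them. In number, the covering reads of SER3 were near the median of ORFs of similar length. Of these reads 7 of 10 began near the most used SRG1 start. The match was on ORF length, not on molecule length. Among 1382 ORFs of 1128 to 1692 bases the median was 11 covering reads, with quartiles at 2 and 40, and 47.0% had fewer than the 10 of SER3, while 76.0% had fewer than the 43 of SER33.

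**Figure D4:**
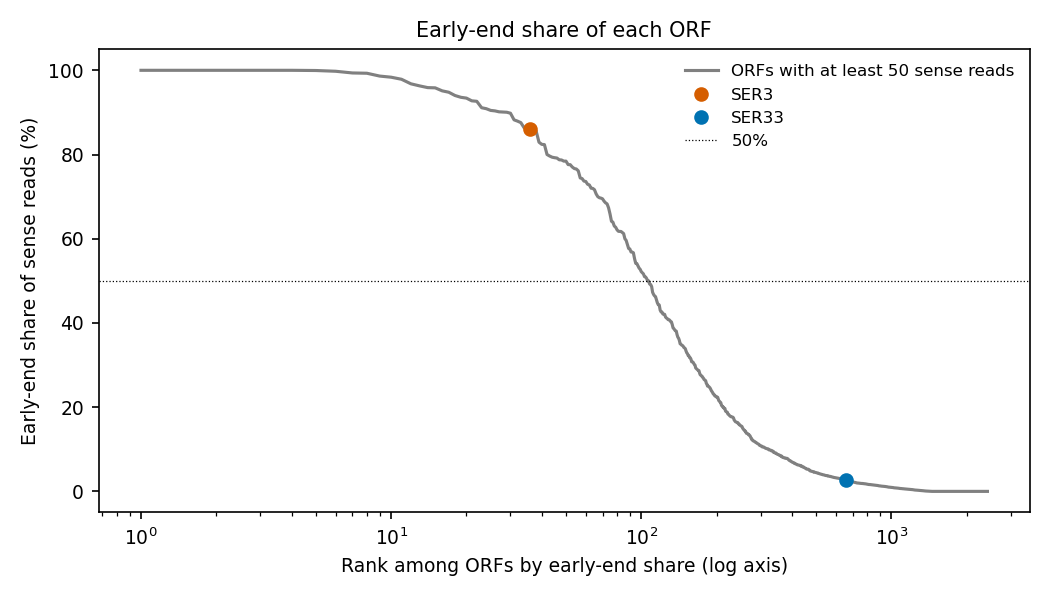
Early-end share of sense reads in percent against the rank of each ORF, on a log axis, for the 2420 ORFs with at least 50 sense reads. SER3 lies on the upper part of the curve at 86.0% and rank 36, and SER33 near its foot at 2.67% and rank 652.

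The ORFs whose early-ending molecules began at the most similar place were named by the difference in their read-weighted median start, among 104 other ORFs with an early-end share over 50%. For SER3 that start lay 473 bases upstream of the start codon. YDR042C followed with 497 bases (a difference of 24, early-end share 90.1%), then LYS9, a lysine synthesis gene, with 498 (25, 63.95%), SFT1, a Golgi SNARE gene, with 502 (29, 52.7%), YDR157W with 440 (33, 63.0%) and SLS1, a mitochondrial translation gene, with 423 (50, 87.6%). In YDR042C 212 of 218 early-end reads and in SFT1 617 of 627 overlapped an annotated noncoding gene of the strand, of any type. In SER3 all 153 had to, because SRG1 spans its start codon. In LYS9, YDR157W and SLS1 none of 55, 363 and 141 overlapped one. Apart from SRG1, no gene typed as ncRNA had more than 158 reads. The overlapping reads of YDR042C and of SFT1 exceeded that number, so neither set can lie on 1 gene of that type. Covering molecules of YDR042C had long leaders like those of SER3, with a median start at -498 relative to the start codon against -473 in SER3, and 19 of 22 reads began 400 or more bases upstream. So did 268 of 547 in SFT1, and the 1 covering read of YDR157W began at -456. In LYS9 and SLS1 none of 18 and 4 covering reads did, with median starts at -76 and -23.5.

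The neighbours on each side met the region at its edges. Upstream, 12 reads of AIM9 ran into it, of which 11 ended within 100 bases past the AIM9 stop codon and 1 ended 320 bases past it, 47 bases short of the most used SRG1 start. On the minus strand, 32 reads that started near the left edge ran away from SRG1 over AIM9. They were part of a group of 90 reads on 78 isoforms that started 274 to 382 bases upstream of the most used SRG1 start, of which 58 lay just outside the region. The most used start of the group, at 321873, had 18 reads, and the median length was 317 bases. AIM9 itself had 4 covering reads on its own strand. No minus-strand read touched the SRG1 gene, which allows up to 1.64 CPM, and none began inside it.

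At the other end SER3 met UTP7, which encodes a factor of small ribosomal subunit assembly on the opposite strand. UTP7 molecules had 68 reads in the region, 43 of them covering UTP7, and ended most often 85 bases past the SER3 stop codon with 31 reads and 101 bases past it with 12 reads. Since SER3 molecules ended 183 bases past the stop codon, the most used forms of both genes shared 99 bases on opposite strands, and the SER3 form reached 7 bases into the UTP7 ORF. Only 1 minus-strand read touched the SER3 ORF. At SER33 19 reads of the other strand touched the ORF, of which 18 began 244 to 365 bases upstream of the start codon of RPN2, a proteasome subunit gene, and ran against the 3′ part of SER33 for up to 458 bases, with a median length of 313 bases. The other 1 began inside the ORF and ran out past its start codon. A further 4 reads began 361 to 478 bases upstream of the SER33 start codon and ran away from it. The rest of the SER33 region was 9 reads of RPN2 and 3 of SPO22.

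Other genes of serine and glycine metabolism were mostly read as full-length molecules. The list held 15 genes, of which 14 had covering reads and 13 lay above the median of ORFs within 20% of their own length, SER3 and AGX1 being the exceptions. The matching shares of all ORFs are not given, so these counts do not set the list apart. GCV3, the H protein of the glycine cleavage system, had 776 covering reads or 423 CPM (394 to 454). CHO1, which uses serine for phosphatidylserine, had 212 CPM (192 to 234) and LPD1, the dihydrolipoamide dehydrogenase shared with glycine cleavage, 196 CPM (176 to 217). In the serine branch itself SER2, the phosphoserine phosphatase, had 124 CPM (109 to 142), SER1, the transaminase, 27.3 CPM (20.2 to 35.9) and SER33 23.4 CPM. SER2 is a shorter ORF of 930 bases, so these levels do not compare the genes.

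CHA1, the serine deaminase gene that is also switched on by Cha4, had 285 covering reads or 155 CPM (138 to 175) and 0 early ends. The threonine aldolase gene GLY1 had 157 CPM (139 to 176), and the hydroxymethyltransferase genes SHM2 and SHM1 78.0 CPM (65.7 to 91.9) and 7.09 CPM (3.77 to 12.1). CYS4 had 62.2 CPM, GCV1 16.4 CPM and GCV2 3.27 CPM, the last with 52 late-start reads against 6 covering ones. AGX1, the alanine:glyoxylate aminotransferase gene, had 0 covering reads. Of 13 members with at least 50 sense reads, SER3 alone exceeded an early-end share of 50%, beside the 4.34% of all ORFs. Its early ends are the SRG1 reads that ended inside the ORF. The next highest was GCV1 at 30%, where 7 of 21 early-end reads began inside another ORF.

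**Figure D5:**
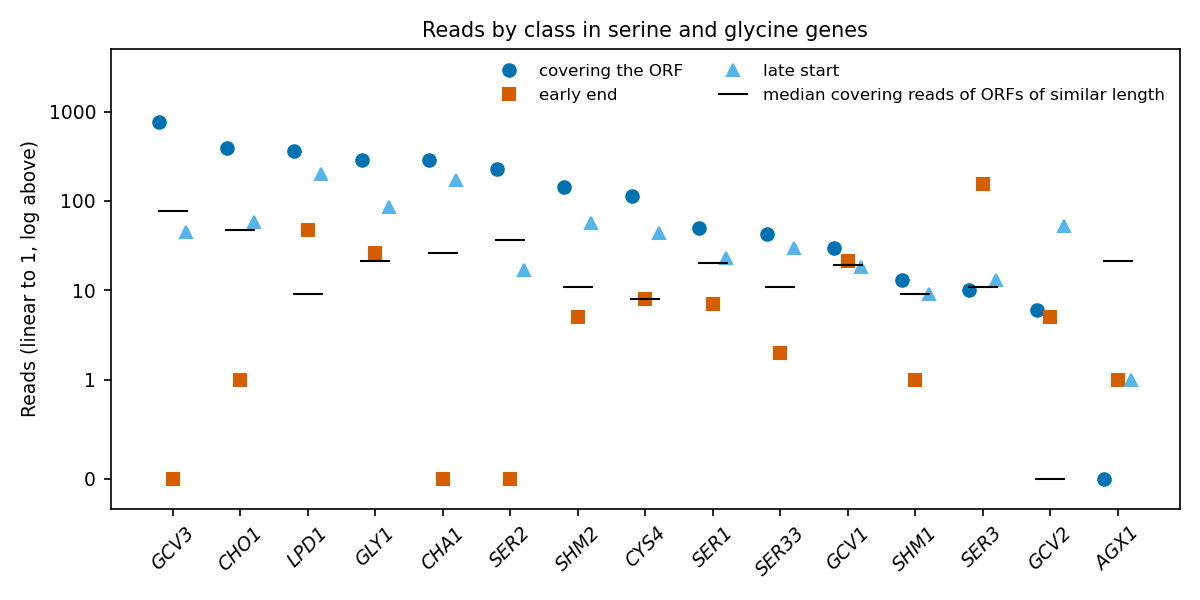
Reads in 15 serine and glycine genes by class, with covering reads as circles, early ends as squares and late starts as triangles, on an axis that is linear to 1 and logarithmic above, and with the median covering reads of ORFs of similar length as a bar. In SER3 the square, at 153 reads, lies above the circle, at 10 reads, while in SER33 the circle lies at 43 and the square at 2. All 153 are SRG1 reads.

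Genes for factors known to act in SRG1 transcription or in the repression of SER3 made up, together with RRP6, a list of 18. Of these, 11 had covering reads, 7 lay above the median of ORFs of similar length and 7 had at least 50 sense reads. The shares of all ORFs with covering reads or above that median are not given. The counts therefore do not set the list apart. For long ORFs this median can be 0, so SPT16 lay above it with 1 covering read, and SPT3 had 30 against 29. The activator gene CHA4 (1947 bases) had 0 covering and 16 late-start reads, and RRP6, deleted in the strain, had no read of any kind. POB3, a subunit of the histone chaperone FACT, had 54.0 CPM (43.9 to 65.7), PAF1, of the Paf1 elongation complex, 33.8 CPM (25.9 to 43.3), SNF6, of the SWI/SNF remodeller, 25.1 CPM (18.4 to 33.5) and SPT3, of the SAGA coactivator, 16.4 CPM (11.0 to 23.4). HTZ1, the histone variant H2A.Z, had 103 CPM (88.4 to 118). SPT2 had 14.7, LEO1 14.2, CDC73 2.18, RTF1 2.18, SNF5 0.545 and SPT16 0.545 CPM, and SPT6, SPT8, SPT20, SNF2 and CTR9 had 0 covering reads, which allows up to 1.64 CPM.

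Of 7 of these genes with at least 50 sense reads, 2 exceeded an early-end share of 50%, against 4.34% of all ORFs with that many reads, RTF1 at 94.8% and SPT6 at 68.3%. Their early ends differed from those of SER3 in the 2 values compared here, which test no cause. In RTF1 180 of 182 and in SPT6 99 of 99 early-end reads ended before A-rich genome, against 9 of 153 in SER3, and their median starts lay 49 and 51 bases upstream of the start codon, against 473 in SER3. In the ORFs named above for a start like that of SER3, ends before A-rich genome varied. They made up 65 of 218 early-end reads in YDR042C, 26 of 141 in SLS1 and 9 of 627 in SFT1. In LYS9 they made up 0 of 55 and in YDR157W 0 of 363.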

How the data were processed

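Cells of 1 group were measured by TIF-Seq in 4 libraries. The authors deposited raw read counts per pair of start and end position, pooled over the libraries, so depth per library is unknown. Novoalign 2.07.10, CASAVA and build R64 are named in the submitters' processing notes, without their roles. Whether PCR copies were collapsed is not stated, so a read need not be an independent molecule, although the intervals treat it as one.

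Isoforms were set against R64 gene spans with Python 3.11.15, pandas 2.3.3 and scipy 1.17.1. Covering means from start to stop codon. CPM is the count per 1000000 of the 1833796 reads. A count of 0 allows up to 3 reads. A-rich means at least 6 A in the next 10 genome bases. Class counts per ORF were tested on simulated data. Named genes were SER3, SRG1, SER33, their neighbours, both lists and the 5 ORFs with the most similar early-end start; noncoding genes named beside SRG1 were chosen after their counts were seen. Members, lists and rules were chosen with earlier results of these data known. Alternatives varied the read minimum, A-rich ends, the counting unit, windows and definitions.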

Additional observations from a re-analysis of the deposited data

How the results depend on the processing

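With at least 2 reads per isoform, SRG1 had 118 reads, SER3 2 and SER33 21 covering reads, the early-end shares were 95.9% in SER3 and 0% in SER33, all 100% of SER3 covering reads began at SRG1 starts, SRG1 used 4 starts and 22 ends, 30 antisense reads were left and SER3 ranked 20 among 1689 ORFs. With at least 5 reads, SRG1 had 75, SER3 0 and SER33 5 reads, and the early-end shares were 100% and 0%; no share of SER3 covering reads could be formed. Counting each isoform once gave 96 for SRG1 and an early-end share of 77.5% in SER3. Merging sites within 20 bases left 8 starts and 13 ends. The wider region held 158 antisense reads, and at 100 sense reads per ORF SER3 ranked 21 among 1604 ORFs. By construction, the read minimums leave out isoforms, merging joins sites and the wider region takes in more isoforms.

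The other 25 of 46 values stayed within 1.5 times the count or inside the Wilson interval. Leaving out A-rich ends gave an early-end share of 86.2% in SER3 and 1.43% in SER33. The share of SRG1 reads ending before the SER3 start codon ranged from 17.7% to 25.3%. Without the 43-read isoform, an alternative chosen after seeing the data, SRG1 had 147 reads and SER3 an early-end share of 81.5%. Leaving out replicates in turn was not run, and no paired analysis was possible because the file holds 1 pooled column. The 10 SER3 covering reads are the thinnest value: the share of 70% at SRG1 starts has an interval of 39.7 to 89.2.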
